A study of Mus musculus with 9 samples.

Results

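Basement membranes are thin sheets of extracellular matrix on which epithelia rest. Laminin trimers, each of an alpha, a beta and a gamma chain, polymerise at the cell surface, collagen IV forms a second covalently linked network, and the nidogens and the heparan sulfate proteoglycan perlecan bind both. In the mouse conceptus, parietal endoderm, which descends from the primitive endoderm of the blastocyst, secretes these proteins in very large amounts to build Reichert's membrane. Mouse embryonic stem cells (mESCs) make some of them as well, and mESC cultures can contain cells that have started to become primitive endoderm.

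The genes described here are 9 that encode the main proteins of the parietal endoderm's basement membrane: Col4a1 and Col4a2 (collagen IV), Lama1, Lamb1 and Lamc1 (laminin), Nid1 and Nid2 (nidogens), Hspg2 (perlecan) and Sparc (a secreted glycoprotein that binds collagen IV). The rule that picks them is a list of names and sets no cutoff on a measured value. The list was, however, chosen with earlier results of these data known. Each of the 9 had 1 transcript cluster that carries its symbol alone, out of 19938 symbols with such a cluster on the array and 23410 transcript clusters with an annotated gene. A transcript cluster is the set of probes that the array assigns to 1 gene or to a few near-identical genes. All 9 members lay at or above the median level of the tested clusters, so none had to be left out.

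RNA of 9 mESC lines at the eighth passage was hybridised to Affymetrix Mouse Gene ST arrays, 1 array per line and 3 lines per group, all of C57BL/6 background and labelled female. The control lines came from blastocysts conceived by natural mating and flushed from the uterus. The other lines came from embryos conceived by in vitro fertilization (IVF). For IVFKAA lines the embryos grew at 5% O2 in KSOM, a medium used here with amino acids, and for IVFWM lines they grew at 20% O2 in the simpler Whitten's medium. All lines were derived on mouse embryonic fibroblast feeders with leukemia inhibitory factor and 2 differentiation inhibitors, and later moved to gelatin without feeders, so the embryo treatment was over before derivation began and all lines were then handled alike. The question was whether the way the embryo was conceived and cultured left a mark on the transcripts of the stem cell lines. A line stands for 1 blastocyst and its outgrowth, and the RNA is that of a whole culture, in which more cells of a type and more RNA per cell cannot be told apart.

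The lines carried the markers of mESCs. Pou5f1, the core pluripotency factor, had log2 levels between 10.07 and 10.43, and Tdgf1, a coreceptor of Nodal, between 11.59 and 11.93. The paper sexed its lines by PCR for SRY and used only female ones for the arrays. The Y-linked signal nevertheless differed between the lines. The Y-linked gene Eif2s3y, which female cells lack, had log2 levels of 4.78 in control 1, 3.72 in IVFKAA 2 and 5.19 in IVFWM 3, against 1.77 to 2.20 in the other 6 lines, while Xist, the RNA of the inactive X, lay between 2.53 and 3.95 in all 9. Uty, another Y-linked gene, was also highest in these 3 lines, at 2.63 to 4.42 against 1.77 to 2.11 in the other 6, whereas the Y-linked Kdm5d was not, at 2.04, 1.96 and 2.04 with its highest level, 2.46, in IVFWM 2. All 4 sex-linked genes measured, Xist among them, had a mean below the median level of the tested clusters. These values do not settle the sex of a line. The members' median differences between groups and their correlations are also given without the 3 lines that had Eif2s3y signal. Of 29 markers of feeder fibroblasts 18 lay at or above the median level of the tested clusters. Among them were Vim, the intermediate filament vimentin, at 8.69 to 9.82, and Fn1, fibronectin, at 7.42 to 8.65, which other cells also make, while the fibroblast matrix genes Postn, Lum and Dcn were at 2.21 to 2.43, 1.68 to 1.95 and 2.91 to 3.52. Of 15 further markers of parietal endoderm 13 lay at or above the median level.

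Promoter sequences are shown as a description, and their relation to the members' levels was not tested. RefSeq promoters (GRCm38.p6) were matched for 6 of the 9 members: Col4a1, Col4a2, Lamb1, Nid1, Hspg2 and Sparc. Lama1, Lamc1 and Nid2 had no entry. Col4a1 and Col4a2 are transcribed away from each other, and the annotated start sites of the chosen transcripts overlap by 22 bases, chr8:11312805-11312826, given here on the plus strand, with a GC box (GGGCGG) in capitals.
Col4a1 and Col4a2: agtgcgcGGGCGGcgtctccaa
The start of Col4a2 is the first of these bases and the start of Col4a1, on the minus strand, the last. Upstream sequence of Nid1 (chr13:13437352-13437601, plus strand), of Sparc (chr11:55420081-55420330, minus strand) and of Hspg2 (chr4:137468553-137468750, plus strand, cut where the first annotated transcript of the gene begins) is given 5′ to 3′, with CCAAT and GGGCGG of either strand in capitals.
Nid1: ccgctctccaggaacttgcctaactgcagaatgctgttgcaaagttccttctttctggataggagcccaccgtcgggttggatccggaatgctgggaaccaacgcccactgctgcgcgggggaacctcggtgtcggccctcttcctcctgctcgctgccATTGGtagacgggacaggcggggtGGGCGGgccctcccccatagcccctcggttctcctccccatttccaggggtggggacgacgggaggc
Sparc: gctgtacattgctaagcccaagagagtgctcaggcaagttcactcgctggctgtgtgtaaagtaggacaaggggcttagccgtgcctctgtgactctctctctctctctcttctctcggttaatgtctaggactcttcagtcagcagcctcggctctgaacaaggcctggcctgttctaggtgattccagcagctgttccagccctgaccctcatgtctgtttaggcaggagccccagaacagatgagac
Hspg2: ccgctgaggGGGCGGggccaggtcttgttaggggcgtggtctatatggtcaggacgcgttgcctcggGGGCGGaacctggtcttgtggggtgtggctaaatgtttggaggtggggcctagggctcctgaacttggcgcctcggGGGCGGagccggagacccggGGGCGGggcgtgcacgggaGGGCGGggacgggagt

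Within the 250 bases before the start site, the CCAAT box (CCAAT on either strand) occurred once each for Col4a1, Col4a2, Lamb1 and Nid1, and 33.8% of the 32851 promoters in the table hold it. The windows of Col4a1 and Col4a2 each lie within the other gene. Another annotated gene also lies over the window of Lamb1 (Gm32899) and over that of Nid1 (Gm7426). The GC box (GGGCGG on either strand) occurred 5 times for Hspg2, 2 times each for Col4a2 and Lamb1 (for Lamb1 both past the point where the gene's first annotated transcript begins) and 1 time for Nid1, and is held by 32.7% of all promoters. Sparc had neither. A motif bound by GATA factors, with the letters GATAAG, is held by 6.55% of all promoters. For AP-1 factors the letters searched were TGANTCA, held by 6.75%. For SOX factors they were AACAAT, held by 9.42%, and for the TATA box TATAAA, held by 12.4%. On both strands, these last 4 motifs occurred in none of the 6 windows. The counted CCAAT and GGGCGG matches did not overlap each other. A match is a description of the letters and no evidence of binding.

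Control 1 and IVFKAA 1 were the 2 highest lines for 6 of the 9 members (Col4a1, Col4a2, Lama1, Lamb1, Lamc1 and Sparc), whereas these lines were the 2 highest for 4.97% of all tested clusters and for 8.02% of those whose level reached the median. The pair was picked out after the members' values were seen, so this contrast is a description and not a test. Both lines were above the mean of the 9 lines for all 9 members. Their likeness was not particular to these genes, as each was the other's nearest line over all tested clusters. The r of their levels across clusters was 0.996, but no other pair's value is given beside it. In their deviations these 2 lines had an r of 0.328, the highest between lines of different groups. The mean deviation of the 9 members from their own means, on the log2 scale, was 0.54 in control 1 and 0.72 in IVFKAA 1, against -0.36 in control 2, -0.35 in control 3, -0.23 in IVFKAA 2, -0.22 in IVFKAA 3, 0.017 in IVFWM 1, 0.0097 in IVFWM 2 and -0.12 in IVFWM 3. The control and IVFKAA groups therefore each held 1 high and 2 low lines, with the IVFWM lines between them. Both high lines carry the number 1, and IVFWM 1 was the highest of the IVFWM lines. The labels give no batch, so a factor shared by lines of 1 number cannot be told apart from this pattern and was not tested.

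**Figure D1:**
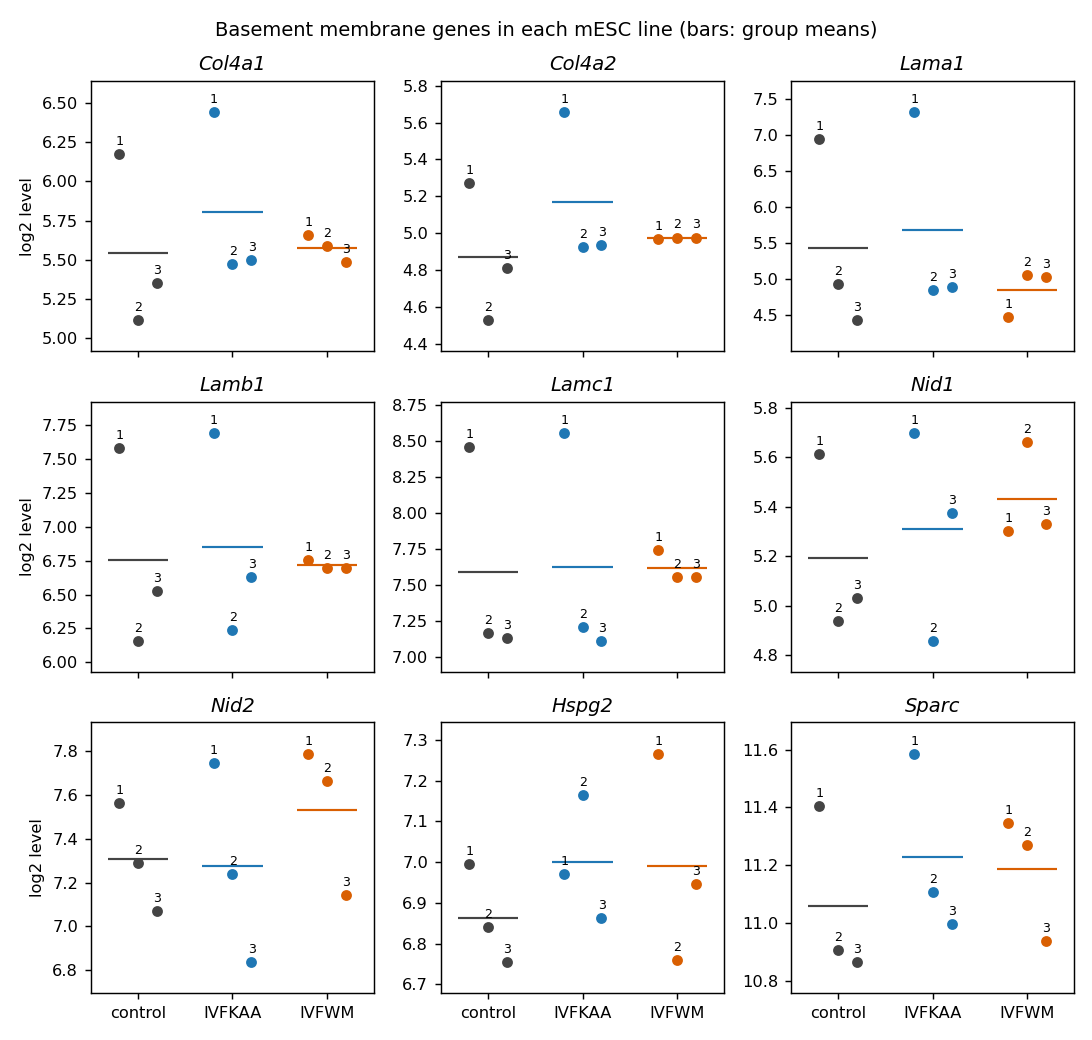
Log2 level of each of the 9 basement membrane genes (vertical axes, 1 panel per gene, each with its own range) in the 9 mESC lines, by group (horizontal axis). Points are lines with their numbers and bars are group means; control 1 and IVFKAA 1 stand above the other 7 lines for the collagen IV and laminin genes, and the groups overlap in every panel.

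Lama1 encodes the laminin alpha chain of the embryo's first basement membranes, and it varied most. Its log2 level was 6.95, 4.94 and 4.43 in control 1, 2 and 3, 7.32, 4.86 and 4.90 in IVFKAA 1, 2 and 3, and 4.48, 5.07 and 5.03 in IVFWM 1, 2 and 3. The lower of the 2 highest lines, control 1, was 1.88 above the third, out of a whole range of 2.89, and the other 7 lines lay between 4.43 and 5.07. The SD over the 9 lines was 1.05, larger than that of 99.9% of the clusters at or above the median level. Over the other 7 lines it was 0.26.

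The beta and gamma chains with which Lama1 pairs were high in the same lines but by less. Lamb1 had log2 levels of 7.58, 6.16 and 6.53 in the control lines, 7.69, 6.24 and 6.63 in the IVFKAA lines and 6.76, 6.70 and 6.70 in the IVFWM lines. Lamc1, whose gamma chain is shared by most laminins, stood at 8.46, 7.17 and 7.13 in the control lines, at 8.56, 7.21 and 7.11 in the IVFKAA lines and at 7.74, 7.56 and 7.56 in the IVFWM lines. The gap between the second and the third highest line was 0.83 for Lamb1 and 0.72 for Lamc1. For Lamc1 all 3 IVFWM lines lay above the 4 low lines of the other groups and below control 1 and IVFKAA 1. The SD over the 9 lines (0.53 and 0.56) exceeded that of 98.5% and 98.7% of the clusters at or above the median level.

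Col4a1 and Col4a2 encode the chains of the collagen IV found in nearly all basement membranes. Col4a1 had log2 levels of 6.17, 5.11 and 5.35 in the control lines, 6.44, 5.47 and 5.50 in the IVFKAA lines and 5.66, 5.59 and 5.48 in the IVFWM lines. The levels of Col4a2 were 5.27, 4.53 and 4.81 in the control lines, 5.66, 4.92 and 4.94 in the IVFKAA lines and 4.97, 4.98 and 4.98 in the IVFWM lines. Both genes were highest in IVFKAA 1, then in control 1, and lowest in control 2. Their SDs, 0.41 and 0.31, exceeded those of 96.0% and 88.3% of the clusters at or above the median level. Equal values such as those of Col4a2 in IVFWM 2 and IVFWM 3 are common in this table, and 7.60% of the tested clusters had the same value in these 2 lines.

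The nidogens, which link laminin to collagen IV, followed the pattern in part. Nid1 was at 5.61, 4.94 and 5.03 in the control lines, 5.70, 4.86 and 5.38 in the IVFKAA lines and 5.30, 5.66 and 5.33 in the IVFWM lines on the log2 scale. Here IVFWM 2 lay between IVFKAA 1 and control 1, so that 3 lines were high, 1 from each group. Nid2 was at 7.56, 7.29 and 7.07 in the control lines, 7.75, 7.24 and 6.84 in the IVFKAA lines and 7.79, 7.67 and 7.14 in the IVFWM lines. Control 1 and IVFKAA 1 were joined here by IVFWM 1 and IVFWM 2, and IVFWM 1 was the highest line of all.

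Sparc and Hspg2 varied least. The log2 level of Sparc was 11.40, 10.91 and 10.87 in the control lines, 11.59, 11.11 and 11.00 in the IVFKAA lines and 11.35, 11.27 and 10.94 in the IVFWM lines, with an SD of 0.25. Its order began with IVFKAA 1 and control 1, but IVFWM 1 followed only 0.057 below. Hspg2 was at 7.00, 6.84 and 6.76 in the control lines, 6.97, 7.17 and 6.86 in the IVFKAA lines and 7.27, 6.76 and 6.95 in the IVFWM lines, with an SD of 0.17. It was the member without the pattern, with IVFWM 1 and IVFKAA 2 as its highest lines and an SD larger than that of 52.0% of the clusters at or above the median level.

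The median SD of the members over the 9 lines was 0.33, against 0.17 for the clusters at or above the median level. The groups accounted for a median of 10.7% of the members' variance (0.10% for Lamc1, 18.1% for Col4a2), against 24.4% over all tested clusters. The spread within groups differed from group to group. For Lama1 the SD was 1.33 in control, 1.41 in IVFKAA and 0.33 in IVFWM, and for Lamb1 0.74, 0.75 and 0.034.

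In the comparison of IVFKAA with control, 0 of the 9 members passed limma (threshold 0.05 on the adjusted p). At an unadjusted p under 0.05 the count was also 0, and 0 passed the rank product. Over all tested clusters limma called 0% (0 of 23410, with 1126 at an unadjusted p under 0.05) and the rank product 0.124%. Of the members 8 of 9 were higher in IVFKAA, with a median log2 difference of 0.14, where the median over all tested clusters was 0.0067. That median rested on single lines: it was 0.48 without control 1, 0.00090 without control 2, 0.036 without control 3, 0.34 without IVFKAA 2, 0.29 without IVFKAA 3 and -0.077 without IVFKAA 1. Without the 3 lines that had Eif2s3y signal it was 0.63, and the difference of Lama1 was then 1.42 (limma adjusted p = 0.916). The difference was 0.30 ± 0.23 for Col4a2 (SE, n = 3 lines per group, 95% confidence interval -0.22 to 0.82, limma adjusted p = 0.918), with 0.50 when control 1 was left out and 0.059 when IVFKAA 1 was. For Lama1 it was 0.25 ± 0.78 (SE, 95% confidence interval -1.52 to 2.02, limma adjusted p = 0.982), with 1.01 and -0.56 when the same lines were left out. The groups did not overlap for 0 members, against 8.08% of all tested clusters.

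Between IVFWM and control, which shares its control lines with the comparison before it, again 0 members passed limma, 0 had an unadjusted p under 0.05 and 0 passed the rank product. The background was 0% for limma (1380 clusters at an unadjusted p under 0.05) and 0.124% for the rank product. The median log2 difference of the members was 0.10, with 7 of 9 higher in IVFWM, and 0.0046 over all tested clusters. Single lines moved it, to 0.35 without control 1, -0.068 without control 2, 0.031 without control 3 and -0.010 without IVFWM 1. Nid1 differed by 0.24 ± 0.24 (SE, limma adjusted p = 0.904) and Nid2 by 0.23 ± 0.25 (SE, limma adjusted p = 0.914). Lama1 was lower by a log2 difference of -0.58 ± 0.78 (SE, limma adjusted p = 0.931), which became 0.17 when control 1 was left out. Without the 3 lines that had Eif2s3y signal the median was 0.39 and the difference of Lama1 0.086 (limma adjusted p = 0.997). Groups were separate for 0 members, against 8.13% of the tested clusters.

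In IVFWM against IVFKAA the counts of members that passed were also 0 for limma, 0 at an unadjusted p under 0.05 and 0 for the rank product, against 0% (1473 clusters at an unadjusted p under 0.05) and 0.299% of the tested clusters. Only Nid1 and Nid2 were higher in IVFWM, and the median log2 difference was -0.044, where that of all tested clusters was -0.0068. It was 0.13 without IVFKAA 1, -0.21 without IVFKAA 2, -0.25 without IVFKAA 3, -0.15 without IVFWM 1, -0.087 without IVFWM 2 and 0.014 without IVFWM 3. The difference of Lama1 was -0.83 ± 0.78 (SE, 95% confidence interval -2.60 to 0.93, limma adjusted p = 0.842). Without IVFKAA 1 it was -0.019, and without the 3 lines that had Eif2s3y signal it was -1.34 (limma adjusted p = 0.767), with a median of -0.18 over the members. No member had separate groups, against 8.66% of the tested clusters. The 95% confidence intervals of the 3 laminin genes reached at least 0.82 on the log2 scale in both directions in all 3 comparisons. With 3 lines per group, changes up to that size were not excluded for these genes. The value is no limit of detection, and larger changes could also have missed the adjusted threshold.

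**Figure D2:**
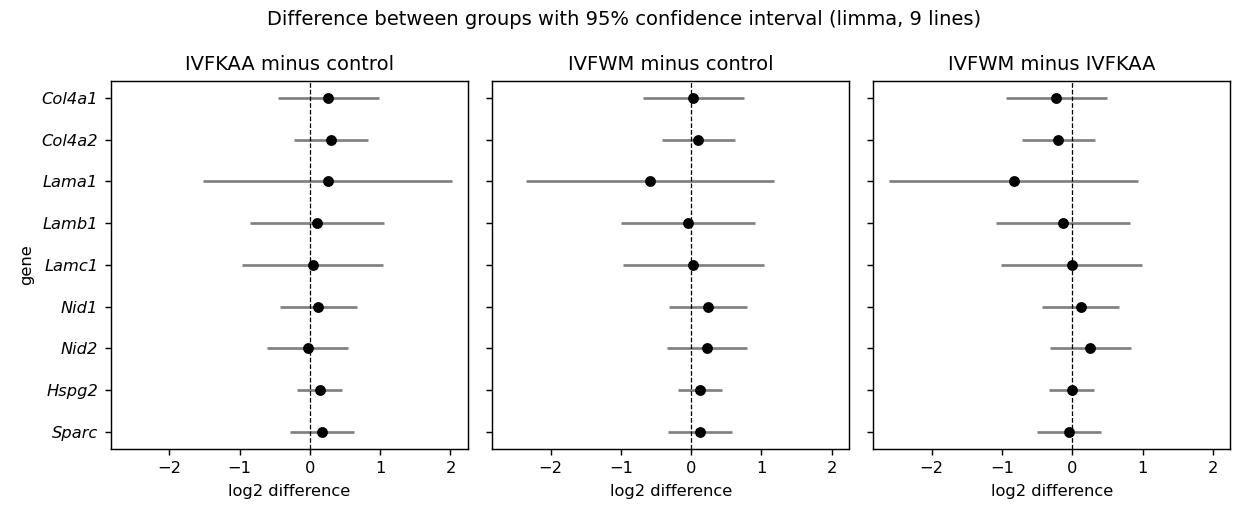
Difference of mean log2 levels between groups (horizontal axis, 1 panel per comparison) for the 9 members (vertical axis). Points are the limma estimates from 9 lines and lines their 95% confidence intervals, all of which include 0; the interval of Lama1 is the widest, -2.60 to 0.93 in IVFWM minus IVFKAA.

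The members varied together over the 9 lines. Of the 36 pairs of members, 35 had a Pearson's r above 0, with a median r of 0.750 (Spearman's rho 0.642), whereas the median over all pairs of tested clusters was 0.0010 and 50.1% of those pairs were above 0. When each group's mean was taken out, the median r was 0.831, and without the 3 lines with Eif2s3y signal it was 0.788. When the mean of each replicate number was taken out instead, it was 0.606, with 27 of 36 pairs above 0. In that setting 0 of the 8 pairs with Hspg2 were above 0, and their median r was -0.440. Much of the joint variation rested on control 1 and IVFKAA 1. Over the other 7 lines the median r was 0.450, with 29 of 36 pairs above 0, against 0.0015 and 50.1% over all pairs of tested clusters.

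Each member was tested against every other tested cluster by an exact permutation test over the 362880 orders of the lines, two-sided, with Benjamini-Hochberg adjustment. At an adjusted p under 0.05, 0 of the 36 pairs passed, as did 0% of the 210681 pairs of a member with a tested cluster, and the lowest adjusted p of a member pair was 0.258. An r above 0 with an unadjusted exact permutation p under 0.05 was found for 22 of the 36 member pairs, all among the 28 pairs without Hspg2, and for 3.78% of the 210681 pairs. This count was 17 by Spearman's rho, 14 without IVFKAA 1, 7 without control 1 and IVFKAA 1 and 13 without the 3 lines that had Eif2s3y signal. The smallest exact p that 9 lines allow is 2.76e-06, which adjusted for a single cluster is 0.0645, so a lone partner could not have passed.

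Col4a1 and Col4a2, the head-to-head pair, had the highest Pearson's r, 0.973 (exact permutation p = 7.16e-05, adjusted p = 0.281 among the partners of Col4a1 and 0.258 among those of Col4a2) and rho = 0.904 (exact permutation p = 0.00158). By rho, Col4a1 with Lamb1 (0.954), Col4a2 with Lamb1 (0.933) and Col4a1 with Sparc (0.933) came before it. Over the 7 lines without control 1 and IVFKAA 1 the r of Col4a1 and Col4a2 was 0.942. Their high r thus did not rest on the 2 high lines alone. Among these 7 lines control 2 and control 3 were the lowest for both genes, and the r without them is not given. Col4a1 and Sparc gave r = 0.899 (exact permutation p = 7.72e-05, adjusted p = 0.281 and 0.271) and rho = 0.933, with r = 0.774 over the 7 lines, and Nid2 and Sparc r = 0.842, with 0.829 over the 7 lines.

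For the laminin genes control 1 and IVFKAA 1 stood apart above the rest, so the relations of these genes are given over the other 7 lines. Lama1 then had r values between -0.31 and 0.33 with the other 8 members, among them -0.128 with Lamb1, -0.103 with Col4a1 and -0.0011 with Lamc1. Lamb1 still had an r of 0.832 with Nid1, 0.788 with Col4a1 and 0.661 with Lamc1, and Lamc1 an r of 0.789 with Nid2 and 0.727 with Sparc. The 3 laminin chains were thus raised in the same 2 lines. Among the other 7 lines, r between the chains was well above 0 only for Lamb1 with Lamc1. That pair did not reach an unadjusted exact permutation p under 0.05 there, and with 7 lines these r values are descriptions. Hspg2 had a median r of 0.241 in its 8 pairs over the 9 lines and of 0.366 over the 7 lines.

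**Figure D3:**
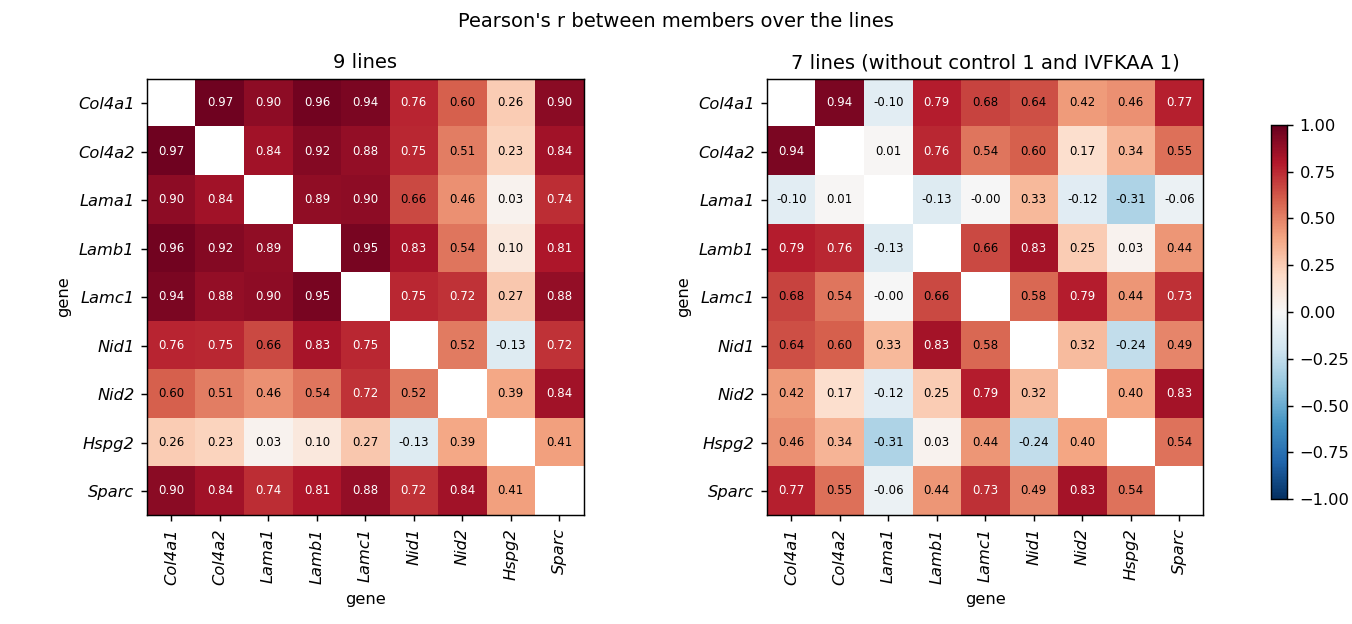
Pearson's r for each pair of the 9 members (both axes list the genes) over the 9 lines, left, and over the 7 lines without control 1 and IVFKAA 1, right, with red for r above 0 and blue for r below 0. The values of Lama1 drop from up to 0.90 to between -0.31 and 0.33, while Col4a1 with Col4a2 goes from 0.97 to 0.94.

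The clusters most like the members were ranked by r with the mean of the members' standardised levels, among 10922 other clusters that carry 1 symbol and reach the median level. The first was Dab2, an endocytic adaptor of primitive and visceral endoderm, with r = 0.970 (0.918 over the 7 lines). Its log2 level was 7.76, 5.96 and 5.86 in the control lines, 8.29, 6.33 and 6.47 in the IVFKAA lines and 6.63, 6.64 and 6.30 in the IVFWM lines, so control 1 and IVFKAA 1 were again the highest. Next came Dapk1, a death-associated kinase (0.964), Srrm2, a splicing factor (0.950), Slc7a5, an amino acid transporter (0.940), Diaph1, a formin (0.940), P4ha2, a collagen prolyl hydroxylase subunit (0.939), Calu, a calcium-binding protein of the secretory pathway (0.936), Shq1, an assembly factor of ribonucleoproteins (0.934), P4ha1, another prolyl hydroxylase subunit (0.932), and Gfpt1, the entry enzyme of hexosamine synthesis (0.926). The 5 with the lowest r were H2bc14, a histone (-0.969), Otub1, a deubiquitinase (-0.967), Surf1, an assembly factor of cytochrome oxidase (-0.945), Ankrd33b (-0.925) and Avpi1 (-0.924). Of all 10922 clusters 27 had an r over 0.9, and the median was 0.067. For Col4a1 by itself the 5 most alike were Dab2 (0.982), Col4a2 (0.973), P4ha2 (0.973), Lamb1 (0.963) and Slc7a5 (0.957).

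Enzymes and chaperones that hydroxylate, fold and crosslink collagen IV went with the members. Of 17 measured, 10 (58.8%) had control 1 and IVFKAA 1 as their 2 highest lines. The share was 4.97% of all tested clusters and 8.02% of those at or above the median level. The median r with the mean member profile was 0.718 over 9 lines and 0.481 over 7 lines. Over the 10922 clusters it was 0.067 at 9 lines, and their median over 7 lines is not given. P4ha2 had log2 levels of 6.18, 4.55 and 4.60 in the control lines, 6.37, 5.10 and 4.95 in the IVFKAA lines and 4.99, 4.99 and 4.84 in the IVFWM lines. Plod2, a collagen lysyl hydroxylase, was at 7.84, 6.57 and 6.86, at 8.03, 6.24 and 6.99 and at 7.36, 6.72 and 6.99 in the same order of lines. Both were higher in control 1 and IVFKAA 1 than in any other line. The collagen chaperone Serpinh1 did not share this order and was highest in IVFWM 1, at 9.11, with 7.78 in control 2 as its lowest level, and Pxdn, the peroxidase that crosslinks collagen IV, was likewise highest in IVFWM 1, at 6.31. Crtap, a component of the prolyl hydroxylase complex, was highest in control 2, at 7.00.

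Regulators of the primitive endoderm were high in the same 2 lines. Of 11 measured, 8 (72.7%) had control 1 and IVFKAA 1 as their 2 highest lines. The share was 4.97% of all tested clusters and 8.02% of those at or above the median level. The median r of the 11 with the mean member profile was 0.790 over the 9 lines but 0.125 over the other 7. The transcription factor Gata4 had log2 levels of 6.38, 5.18 and 5.05 in the control lines, 6.51, 5.48 and 5.27 in the IVFKAA lines and 5.08, 5.23 and 5.25 in the IVFWM lines. Gata6, its relative that acts first in the lineage, was at 6.34, 5.29 and 4.81, at 7.01, 5.73 and 5.48 and at 4.87, 5.62 and 5.48. The receptor Pdgfra, at 4.38, 4.05 and 4.21, at 4.84, 4.21 and 4.47 and at 3.86, 4.23 and 4.05, and Sox7, another transcription factor, at 5.77, 5.27 and 5.43, at 5.90, 5.27 and 5.12 and at 4.52, 4.75 and 5.27, were also highest in IVFKAA 1. Fgfr2, a fibroblast growth factor receptor, was highest in control 2, at 5.07. In IVFWM 1 this list deviated by a mean of -0.31 from its own means while the members deviated by 0.017, so outside the 2 high lines the lists did not run in parallel.

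**Figure D4:**
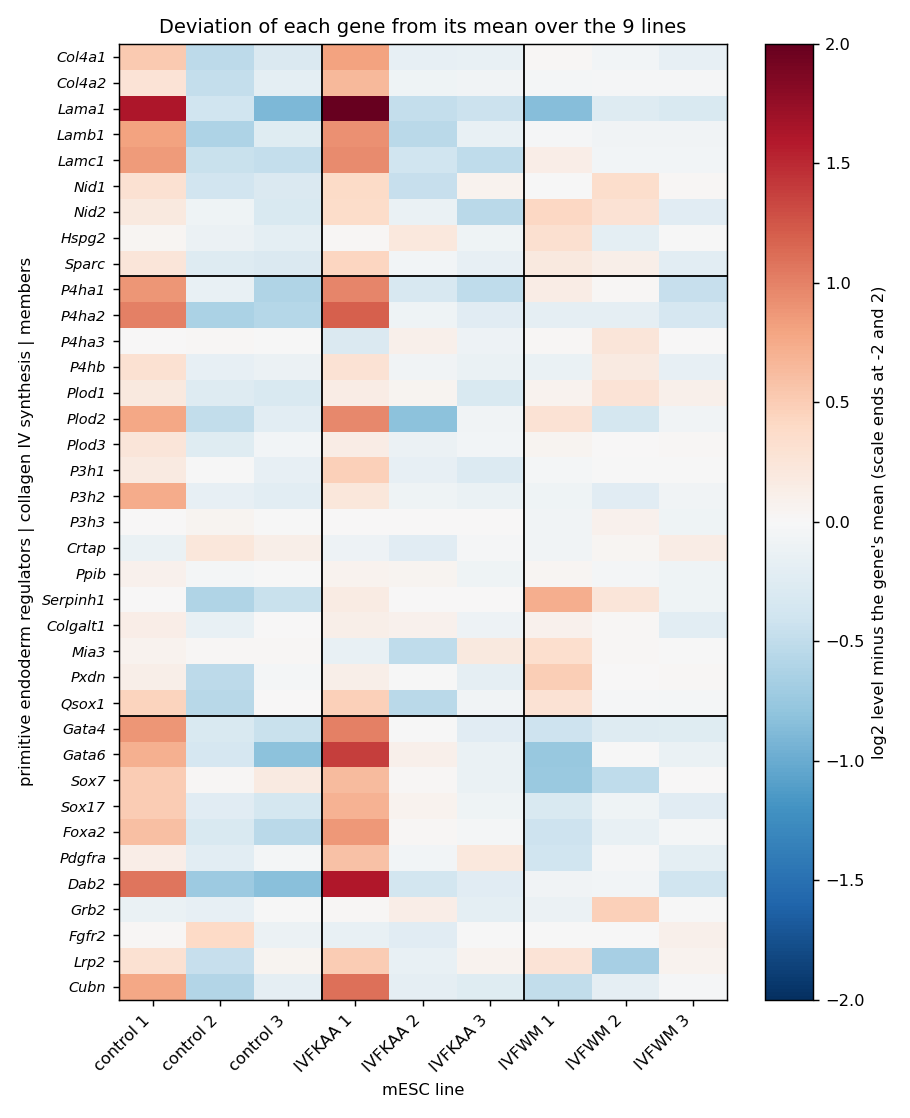
Log2 level of each gene minus its own mean over the 9 lines (colour, scale from -2 to 2) in the 9 mESC lines (horizontal axis, groups parted by vertical lines). Rows from the top are the 9 members, 17 genes of collagen IV synthesis and 11 primitive endoderm regulators; the columns of control 1 and IVFKAA 1 are red for most rows.

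Other lists shared less of the pattern. Among 15 further markers of parietal endoderm 5 (33.3%) had control 1 and IVFKAA 1 as their 2 highest lines. The share was 4.97% of all tested clusters and 8.02% of those at or above the median level. Another 3, the keratins Krt8, Krt18 and Krt19, had these lines as their 2 lowest. The share of all tested clusters with that order is not given, so this count is only a description. The median r of the 15 with the mean member profile was -0.0035. Srgn, the core protein of a proteoglycan of secretory granules, went from 3.82 in IVFWM 1 to 8.45 in control 1 and 8.85 in IVFKAA 1, with 4.52 to 5.51 in the other 6 lines. Krt8, by contrast, was at 10.76 in control 1 and 10.95 in IVFKAA 1 against 11.10 to 11.63 in the other lines. The markers with the smallest limma p, Cryab, a small heat shock protein (8.95 to 9.70), Tmprss2, a serine protease (4.40 to 5.95), and Fst, an inhibitor of activins (5.12 to 6.19), had neither order.

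The counts with control 1 and IVFKAA 1 as the 2 highest lines were 2 of 14 for visceral endoderm markers (median r 0.010), 1 of 12 for trophectoderm markers (-0.160), 1 of 18 for pluripotency markers (0.030), 1 of 19 for receptors of the basement membrane (0.359) and 1 of 26 for its other components (-0.072). The share over all tested clusters was 4.97%, so counts of 1 or 2 genes do not set these lists apart. Over the 7 lines without control 1 and IVFKAA 1, the mean of a list had an r with the mean of the members of 0.808 for the receptors, 0.441 for the other components, -0.101 for the parietal endoderm markers, -0.109 for the pluripotency markers, -0.612 for the visceral endoderm markers and -0.744 for the trophectoderm markers. Among the receptors, the syndecan genes Sdc2, Sdc3 and Sdc4 were at 5.27 to 6.27, 4.52 to 5.52 and 6.19 to 6.68. Trophectoderm markers with the smallest limma p were Esx1 (4.53 to 5.77), Plac1 (4.04 to 4.99) and Eomes (4.62 to 5.44). Of the other components, Smoc1, a calcium-binding matrix protein, was lowest in IVFKAA 1, at 4.49, and highest in IVFWM 2, at 5.54, while Col4a5, a further collagen IV chain, was at 3.82 to 4.38 and Ntn4, a netrin, at 3.96 to 4.59. The laminin alpha chain gene Lama5, at 6.45 to 6.86, had 6.58 in both control 1 and IVFKAA 1.

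Of 29 feeder fibroblast markers measured, 1 (3.45%) had control 1 and IVFKAA 1 as its 2 highest lines, near the 4.97% of all tested clusters. These markers did not go with the members over the 9 lines, with a median r of -0.173. The log2 of their summed level was 11.83 to 12.05 in the control lines, 12.15 to 12.23 in the IVFKAA lines and 12.19 to 12.30 in the IVFWM lines. Over the 7 lines without control 1 and IVFKAA 1, however, the mean of this list had an r of 0.859 with the mean of the members. Acta2, smooth muscle actin, was at 7.87, 8.31 and 8.56 in the control lines and 8.87, 9.82 and 9.34 in the IVFWM lines. The matrix proteoglycan gene Bgn was at 6.28 and 6.22 in IVFWM 1 and IVFWM 2 against 4.93 to 5.23 elsewhere. The part of fibroblast RNA in the members' values was not tested.

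Of the 10 lists besides the members, none had a gene past limma's adjusted threshold in any comparison. The rank product called 3 of their genes: Srgn was lower in IVFWM than in control and than in IVFKAA, Spink1, a trypsin inhibitor, was lower in IVFWM than in control, and Acta2 was higher in IVFWM than in control. Srgn passed in the comparisons that set the group without a high line against a group with 1. The primitive endoderm regulators had a median log2 difference of 0.23 in IVFKAA minus control, -0.15 in IVFWM minus control and -0.47 in IVFWM minus IVFKAA, and the collagen IV synthesis list 0.0039, -0.027 and -0.021.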

How the data were processed

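The authors hybridised RNA of 9 lines to 1 array each and deposited 1 table of log2 levels for 35556 transcript clusters, made per the labels with R 3.1.0 and Affymetrix Expression Console, and by RMA per their methods, which corrects background, normalises between arrays and summarises probes on the log2 scale. A small change in a gene with low signal is understated by this. Depth does not apply to arrays, and the number of arrays limits the precision. Clusters with an annotated gene (23410) were tested, and genes were named from GEO's platform annotation. Groups and line numbers came from the sample titles. The labels name the lines as separate lines but give no batch.

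For differences, limma 3.58.1 ran under R 4.3.3 on all 9 lines with a mean for each group (lmFit, then eBayes, two-sided, Benjamini-Hochberg over all tested clusters, threshold 0.05). The rank product, which the methods name, used the 9 pairwise differences, 100 permutations of each array and a threshold of 0.05 on the percentage of false positives. Correlations used exact permutation (numpy 2.4.6, numba 0.67.0, scipy 1.17.1, pandas 2.3.3, Python 3.11.15). All were tested on simulated data. Plots used matplotlib 3.10.9.

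The members and the 10 other lists were chosen with earlier results of these data known. The lists are other basement membrane components, collagen IV synthesis and crosslinking, basement membrane receptors, regulators of primitive endoderm, markers of parietal and visceral endoderm, trophectoderm, feeder fibroblasts and pluripotency, and sex-linked genes. Genes were named by rule: all members, up to 3 genes per list with the smallest limma p, the 10 clusters most and the 5 least like the mean member profile, the 5 most like Col4a1, Eif2s3y and Xist. Gata4, Gata6, Plod2, Srgn, Lama5, Krt8, Krt18, Krt19, Fn1, Postn, Lum, Dcn, Nanog, Klf2 and Utf1 were named after their values were seen. Alternatives were other sets of clusters, quantile normalization, median centring, other settings of limma (with statmod 1.5.0) and of the rank product, replicate numbers as a block, and leaving out lines. Control 1 and IVFKAA 1 were picked as a pair after seeing the data, both for the counts of highest lines and for leaving out together.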

Additional observations from a re-analysis of the deposited data

How the results depend on the processing

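Under every alternative run, 0 members passed limma, the rank product or the correlation test (lowest limma adjusted p 0.488). With lines left out, fewer orders exist and the smallest exact p is higher than with 9 lines. The 0 of the correlation test in those settings was therefore nearly fixed beforehand and says little. Of 221 recomputed counts and medians 216 stayed within 1.5 times the count or within the spread. Among the exceptions was the count of member pairs with r above 0 at an unadjusted exact permutation p under 0.05 (22). It was 7 without control 1 and IVFKAA 1, 13 without control 1, IVFKAA 2 and IVFWM 3 and 14 without IVFKAA 1. Without any other single line the count stayed within 1.5 times, at up to 23. The members' median log2 difference in IVFKAA minus control also moved without control 1, IVFKAA 2 and IVFWM 3 (0.63). So did the median r of member pairs without control 1 and IVFKAA 1 (0.450). Among clusters at or above the median level, 1 cluster that is no member passed the correlation test, with an r below 0 against Col4a1. Without 1 line the median r ranged from 0.660 to 0.836, and the median differences from -0.077 to 0.48, -0.068 to 0.35 and -0.25 to 0.13 in the order of the report. Single members' differences changed sign in 50 of 378 recomputations, which touched 20 of the 27. Same-numbered lines of different groups had correlations of -0.013 to 0.328 in their deviations, over 0.1 in 5 of 9 pairs, so the numbers did not pair the lines by the rule set for it, although 8 of 9 lines deviated most like a line of their own number. With the replicate block, 0 members passed limma and the median r was 0.606, with 27 of 36 pairs above 0. All group differences rest on 3 lines each, and no limma interval of a member excludes 0. Signal over background was not given per probe, so low levels such as those of Postn cannot be told from none.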

Other observations

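Nanog, a factor that opposes primitive endoderm fate, had log2 levels of 9.02, 10.10 and 9.52 in the control lines, 8.52, 9.72 and 9.32 in the IVFKAA lines and 9.98, 10.35 and 9.09 in the IVFWM lines. IVFKAA 1 and control 1, the lines highest for Lama1, were the 2 lowest for Nanog, with IVFWM 3 next. Of the 18 pluripotency markers measured, 2, Nanog and Klf2, had IVFKAA 1 and control 1 as their 2 lowest lines. Utf1 had them as its 2 highest, and the list's median r with the mean member profile was 0.030. The share of all tested clusters with these lines as the 2 lowest is not given. The count of 2 therefore does not set this list apart. Pou5f1 did not share Nanog's order and was highest in control 1. Nanog was looked at after its values were seen, no test was run on the relation, and its cause was not tested.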
